A study of Rattus norvegicus with 156 samples.

Results

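The response to ligation of the L5 and L6 spinal nerves was compared between the dorsal root ganglia (DRG) whose own nerves were tied, L5 and L6, and the neighbouring L4 ganglion, whose spinal nerve was left intact. Members were the ipsilateral DRG samples of all 5 treatments at L4, L5 and L6, which gave 15 of the 52 RNA samples and 45 of the 156 arrays of the series. The ligated groups were SNL (spinal nerve ligation) and SNL+ GPN, ligated and treated with gabapentin, an antiepileptic drug that lowers neuropathic pain. The unligated groups were Naive and Naive+ GPN, which had no surgery, and Sham, in which the same nerves were exposed but not tied. Gabapentin was injected into the abdomen once a day at 100 mg/kg for 7 days, vehicle was saline, and tissue was taken 19 to 21 days after surgery. The labels give no strain, sex or age. Ligated rats entered the study only if their paw withdrawal threshold on the operated side had dropped when tested 12 to 14 days after surgery, so the ligated groups hold responders. Each treatment had 8 to 12 rats and each arrayed sample was 1 pool of 4 to 6 of them, so 2 ligated pools were set against 3 unligated pools. Each side of the comparison holds 1 gabapentin pool, but both ligated pools and only 1 of the 3 unligated pools had surgery. P-values of the changes in injured ganglia and in L4 measure the spread between these pools. The labels do not say whether the L4, L5 and L6 samples of a treatment came from the same rats, so a pool followed across levels means a treatment here.

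Each DRG holds the cell bodies of sensory neurons together with satellite glia, Schwann cells, macrophages and vessels. Cutting or tying a spinal nerve separates these neurons from their targets, and the injured neurons are known to switch from a transmitting to a growth state, with loss of many ion channels and transmitter peptides and gain of transcription factors such as Atf3 and peptides such as Npy and Galanin. L4 neurons keep their own axons but share the sciatic nerve with degenerating fibres from L5 and L6, which is why L4 is used as the spared ganglion in this model.

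Each sample had been hybridised to the 3 arrays (A, B and C) of the Affymetrix rat U34 set, which carry different probe sets. After filtering, 17249 of 26379 probe sets and 8761 genes were kept. The sensory neuron markers Scn11a, Scn10a, Calcb, Calca, Npy, Prph, Nefl, Nefh and Rbfox3 were measured with none at 0 in any sample. The B cell gene Cd79b, the T cell genes Cd3d and Cd2 and the fat genes Adipoq, Fabp4 and Plin1 did not pass the filter. The highest Cd79b signal was 74.6, beside a median of 17.4. The T cell gene Cd3e was kept, with signals of 23.9 to 59.6. Some qualities of the samples moved with ligation or set a sample apart. The median deposited signal of the L4 arrays of set C was 51.8 to 53.3 in the ligated pools and 18.0 to 25.7 in the unligated pools, on set B 24.3 to 33.1 against 11.4 to 20.8, and on set A 27.9 to 30.3 against 26.9 to 35.4. The ratio of 3′ to 5′ GAPDH probe sets, a sign of RNA integrity, was 1.10 to 1.15 in ligated L4 against 1.35 to 1.40 in unligated L4, and 1.08 to 1.20 against 1.18 to 1.58 in L5 and L6. Skeletal muscle markers averaged 7.13 log2 units in SNL L4 against 4.81 to 5.52 in the other L4 samples, and the Naive L5, Naive L6 and SNL+ GPN L5 samples stood at 6.90 to 7.50. Erythrocyte markers reached 9.18 in SNL L6 against 7.65 to 8.4 in the other samples. The part of these features in the results was not tested, beyond the values given beside them.

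After quantile normalization more probe sets were called in the injured than in the spared ganglia when each was tested alone. In L5 and L6, 3143 of 17249 probe sets (18.2%) passed an adjusted p of 0.05 (limma, Benjamini-Hochberg), of which 1477 (8.56%) were higher and 1666 (9.66%) lower in the ligated pools. In terms of genes, 828 of 8761 rose and 902 fell, which is the background for the counts of gene lists below. In L4 no probe set passed (0%, lowest adjusted p 0.0537), while 2390 (13.9%) had an unadjusted p under 0.05 and the ligated and unligated pools did not overlap for 31.3%. A result past the threshold in one place and not in the other is not in itself a difference, so the change in injured ganglia minus that in L4 was tested. For each pool the mean of L5 and L6 minus L4 was formed on the log2 scale, which leaves 5 values and 3 residual degrees of freedom. On these 5 values no probe set passed (0%, lowest adjusted p 0.0572), with 3515 (20.4%) at an unadjusted p under 0.05 and 6768 (39.2%) in which the pools did not overlap.

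An alternative test that takes the 15 samples singly, with pool as a block, has 6 residual degrees of freedom. It called 1230 probe sets (7.13%), 586 higher (3.4%) and 644 lower (3.73%), or 315 higher and 340 lower genes. This 15-sample test counts L5 and L6 of a pool as separate values, so its p-values do not rest on pools alone. With Naive left out it called 644 probe sets, with Naive+ GPN left out 560, with Sham 715, with SNL 538 and with SNL+ GPN 214. Of its 655 genes 90, 22 higher and 68 lower, passed under all 5 of these. The injured ganglia alone gave 2083 without Naive+ GPN, 1051 without SNL and 1990 without SNL+ GPN, with 501 of 1730 genes passing whichever pool was left out. Scaling shifts the balance of directions. With each array divided by its median 37.9% of calls in injured ganglia were higher, against 47.0% after quantile normalization, and in the 15-sample test 64.4% against 47.6%. With the deposited scaling 22.2% of 618 calls in injured ganglia, 98.3% of 2745 calls in L4 and 3.51% of 114 calls of the 15-sample test were higher, with median changes of -0.26, 0.48 and -0.75 over all probe sets. Over all 8761 genes, 134 rose and 174 fell in injured ganglia with the GAPDH ratio of each pool as a covariate. Under the deposited scaling 64 rose and 246 fell. Below, a difference is the injured change minus the L4 change in log2 units with the standard error (SE) of the 5 values, and p-values of a difference come from the 15-sample test.

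The 3 marker genes each showed another relation between injured and spared ganglia. Scn11a encodes Nav1.9, a sodium channel of nociceptors. Its signal in L5 was 83.2 and 96.0 in SNL and SNL+ GPN against 619.6, 582 and 546 in Naive, Naive+ GPN and Sham, and in L6 28.3 and 46.8 against 762, 618 and 698. In L4 it was 269 and 385 against 477, 467 and 464. The ligated pools lay below all unligated pools at each level, by far more in L5 and L6 than in L4. Scn11a fell by 3.33 ± 0.15 log2 units in injured ganglia (10.1-fold, adjusted p = 6.63e-05), its L4 change was -0.54 ± 0.16 (adjusted p = 0.205), and the difference was -2.80 ± 0.22 (adjusted p = 7.64e-06). Per pool the mean of L5 and L6 minus L4 was 0.52, 0.36 and 0.41 in Naive, Naive+ GPN and Sham and -2.32 and -2.42 in SNL and SNL+ GPN.

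Calcb, which encodes the beta form of the vasodilator calcitonin gene-related peptide (CGRP), moved in opposite directions. Its L5 signal was 225 and 189 in SNL and SNL+ GPN against 396, 552 and 479 in Naive, Naive+ GPN and Sham, and its L6 signal 139 and 159 against 561, 445 and 486. In L4 the ligated pools were the higher ones, at 468 and 540.3 against 309, 371 and 327. The groups did not overlap at any level. Calcb fell by 1.44 ± 0.10 in injured ganglia (adjusted p = 0.000266), while its L4 value was 0.58 ± 0.13 (adjusted p = 0.131), for a difference of -2.01 ± 0.18 (adjusted p = 0.000447).

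Npy encodes neuropeptide Y, a peptide that healthy sensory neurons hardly make. Its L5 signal was 1700.5 and 1963 in SNL and SNL+ GPN against 66.8, 47.2 and 185 in Naive, Naive+ GPN and Sham, and its L6 signal 2777 and 2646 against 57.6, 83.3 and 116. In L4 it was 806 and 506 against 93.7, 72.1 and 128. Both ligated pools exceeded every unligated pool at all levels, L4 included. Npy rose by 4.64 ± 0.33 in injured ganglia (25-fold, adjusted p = 0.000266) and was 2.67 ± 0.26 higher in L4 (6.36-fold), where its adjusted p of 0.0537 did not pass. The difference of 1.97 ± 0.38 passed the 15-sample test (adjusted p = 0.00658) but not without SNL+ GPN (adjusted p = 0.121).

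**Figure D1:**
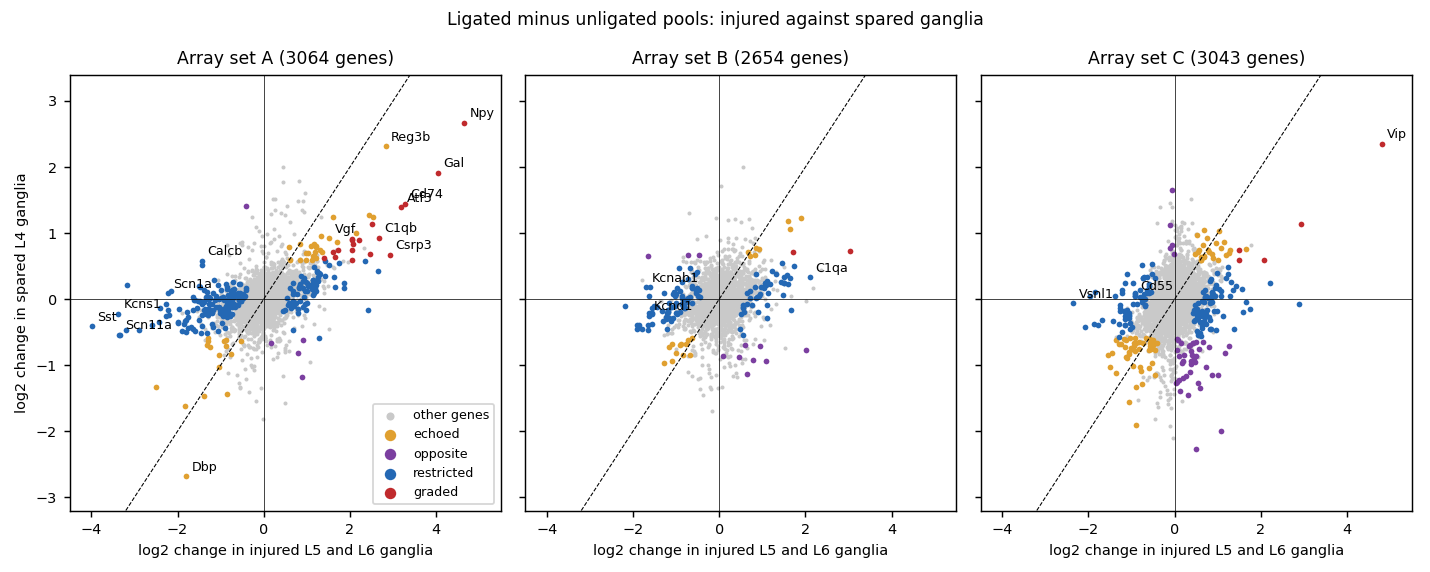
Log2 change after ligation in injured L5 and L6 ganglia (x axis) against that in spared L4 ganglia (y axis), ligated minus unligated pools, for the 3064, 2654 and 3043 genes of array sets A, B and C, with classes of the 15-sample test in colour and equality dashed. Npy, Vip, Gal, Atf3 and Cd74 lie to the right and above 0, Sst, Scn11a and Kcns1 to the left near 0, and set C spreads more along the L4 axis than set A.

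Some peptide genes rose and others fell in the injured ganglia. Stretches of the promoters of 6 of them are shown because they hold the core letters of the cyclic AMP response element, TGACG (or CGTCA on the other strand), in the 250 bases before the annotated start. The sequences are from RefSeq, build GRCr8, read 5′ to 3′ on the strand of the gene. Capitals mark the core or, where present, the full element TGACGTCA, which contains it.
Gal, chr1:210084606-210084660 (minus strand), match 63 bases before the start: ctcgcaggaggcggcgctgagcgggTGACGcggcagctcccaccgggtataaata
Vip, chr1:44470358-44470412 (plus strand), match 97 bases before the start: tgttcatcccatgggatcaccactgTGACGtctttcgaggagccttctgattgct
Vgf, chr12:25277078-25277135 (minus strand), match 90 bases before the start: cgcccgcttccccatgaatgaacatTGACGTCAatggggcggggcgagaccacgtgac
Calca, chr1:178317612-178317666 (minus strand), match 112 bases before the start: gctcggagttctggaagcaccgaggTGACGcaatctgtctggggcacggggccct
Tac1, chr4:36645352-36645406 (plus strand), match 206 bases before the start: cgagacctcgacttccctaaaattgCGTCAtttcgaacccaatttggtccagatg
Scg2, chr9:88256957-88257014 (minus strand), match 123 bases before the start: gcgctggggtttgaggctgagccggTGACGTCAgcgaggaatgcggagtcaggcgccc

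The core was present in 3 of 5 promoters of injury peptides (Gal, Vip, Vgf, Npy, Adcyap1) and in 3 of 5 of nociceptor peptides (Calca, Tac1, Scg2, Sst, Chgb), and the full element in 1 of each. The counts were thus equal in these 5 and 5 promoters, while Crh and Calcb had no promoter entry and were not searched. Of all 27457 RefSeq promoters searched 19.0% held the core and 1.7% the full element, and of the 7269 kept genes among them 28.6% and 2.85%. No match was found in this window for Npy, Adcyap1, Sst and Chgb. The search used 1 annotated start per gene and nothing outside its window, so it cannot show that a gene lacks the element.

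Injury peptides rose in the damaged ganglia and stood higher in L4 as well. Of 6 kept members of the list 5 rose and 1 fell in injured ganglia, with a median change of 2.78 there, 1.42 in L4 and 1.37 in the difference. Under the deposited scaling 3 rose. The medians over all 8761 genes were -0.0023, -0.015 and 0.011. The median L4 change of this list was the highest of all lists, and in 5 of 6 members both L4 ligated pools exceeded the 3 others, which was so for 15.2% of all probe sets.

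Galanin (Gal), a peptide with inhibitory actions on sensory transmission, had L5 signals of 732 and 793 in SNL and SNL+ GPN against 53.8, 34.5 and 119 in Naive, Naive+ GPN and Sham, and L6 signals of 1027 and 1139 against 29.6, 24.1 and 85.6. In L4 the values were 336 and 204 against 60.2, 42.2 and 108. Sham was the highest of the unligated pools at every level, yet well under both ligated ones. Gal rose by 4.04 ± 0.41 in injured ganglia (16.5-fold, adjusted p = 0.000914), its L4 change was 1.91 (adjusted p = 0.0899), and its difference of 2.13 ± 0.34 (adjusted p = 0.000622) passed whichever pool was left out.

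Vip, vasoactive intestinal peptide, was near the floor in unligated ganglia. It reached 257 and 327 in ligated L5 and 459.5 and 404 in ligated L6 against 2.63 to 23.3 in the 6 unligated samples, and 81.3 and 39.6 in ligated L4 against 1.79, 2.74 and 20.4. Vip had the largest rise among these peptides, 4.81 ± 0.31 in injured ganglia (adjusted p = 0.000209). Its L4 change was 2.35 (adjusted p = 0.13), and its difference of 2.45 ± 0.65 passed (adjusted p = 0.00337) but not without SNL+ GPN (adjusted p = 0.0871).

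Adcyap1, which encodes the peptide PACAP, rose by 1.39 ± 0.11 (adjusted p = 0.000429) with 0.63 in L4. Its difference of 0.76 ± 0.20 passed (adjusted p = 0.0194) but held only when Sham was the pool left out (adjusted p = 0.0331, 0.0522 to 0.159 without another), and its 3 probe sets disagreed, with differences from -1.23 to 0.76. Vgf, a secreted neuronal peptide precursor, rose by 1.52 ± 0.21 (adjusted p = 0.00336) with 0.92 in L4, and its difference of 0.60 ± 0.35 did not pass (adjusted p = 0.237). Crh, corticotropin-releasing hormone, was the member that went the other way. It fell by 1.15 ± 0.23 in injured ganglia (adjusted p = 0.0143; 0.0804 without SNL) from weak signals of 17.5 to 30.6, with 0.29 in L4.

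Peptides of healthy nociceptors fell in the injured ganglia. All 6 kept members of the list fell there and all 6 passed the 15-sample test, also with any pool left out, with a median of -1.54 in injured ganglia, 0.07 in L4 and -1.85 in the difference.

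Somatostatin (Sst), an inhibitory peptide of a subset of nociceptors, had L5 signals of 61.2 and 65.6 in SNL and SNL+ GPN against 385, 406 and 364 in Naive, Naive+ GPN and Sham. In L6 it was 6.03 and 10.5 against 609.9, 672 and 565, and in L4 217 and 314 against 321, 414 and 319. Ligated L6 was close to the floor, while in L4 SNL lay below all unligated pools and SNL+ GPN just below the lowest of them. Sst fell by 3.99 ± 0.13 (15.9-fold, adjusted p = 2.2e-05) with -0.41 in L4, and its difference of -3.58 ± 0.31 had the lowest adjusted p of the 15-sample test (1.47e-06).

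Scg2, the granule protein secretogranin II, had ligated signals of 50 to 132 in L5 and L6 against 241 to 541 unligated, and of 218 and 429.9 in L4 against 320.0, 264 and 265. The ligated L4 pools lay on both sides of the unligated ones. Scg2 fell by 2.15 ± 0.13 (adjusted p = 0.000156), with a difference of -2.27 ± 0.31 (adjusted p = 0.000517).

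Calca, which encodes the alpha form of CGRP, was at 692 and 729 in ligated L5 and 171 and 267 in ligated L6 against 1088 to 1488 in unligated samples, and at 1225 and 1417 in L4 against 1651, 1024 and 1281. It fell by 1.65 ± 0.13 (adjusted p = 0.000385) with 0.03 in L4. Tac1, the substance P precursor, fell by 1.14 ± 0.14 (adjusted p = 0.00187) and Chgb, chromogranin B of secretory granules, by 1.32 ± 0.13 (adjusted p = 0.00086), with L4 values of -0.02 and 0.11. Within the ligated pools Calca and Tac1 were lower in L6 than in L5, Tac1 at 272 and 443 against 598 and 612.

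Voltage-gated sodium channels fell in the injured ganglia for 6 of 9 kept members and rose for none, with a median of -0.87 there, -0.10 in L4 and -0.67 in the difference. Under the deposited scaling 3 fell. Beside Scn11a, the other tetrodotoxin-resistant channel Scn10a (Nav1.8) went from 318 to 467 in the 6 unligated L5 and L6 samples to 60.1 to 90.8 in the 4 ligated ones, against 217 and 327 in ligated L4 and 363, 309.7 and 287 in unligated L4. Scn10a fell by 2.27 ± 0.13 (adjusted p = 0.000145) with a difference of -2.02 ± 0.24 (adjusted p = 0.000428). Scn1a (Nav1.1), a channel of large myelinated neurons, fell by 2.22 ± 0.18 (adjusted p = 0.000429), from 76.1 to 158 to 16.5 to 27.4. Its L4 signals of 136 and 179.9 in the ligated pools lay among the unligated 119, 203 and 132, and its difference was -2.31 ± 0.43 (adjusted p = 0.000517).

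Scn8a, the channel of nodes of Ranvier, fell by 0.87 ± 0.15 (adjusted p = 0.00861; 0.0689 without SNL), and its difference of -0.76 ± 0.19 did not pass (adjusted p = 0.141). Scn9a (Nav1.7) had a change of -0.45 (adjusted p = 0.114) and Scn3a (Nav1.3), an embryonic channel, of 0.53 (adjusted p = 0.107), neither past the threshold. The Scn3a signals were 56.4 and 70.8 in ligated L5 against 31.7, 39.7 and 24.4 unligated, but 54.3 and 35.6 against 31.4, 55.3 and 33.2 in L6, where the pools overlapped.

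Potassium channels fell for 13 of 23 kept members and rose for none, with a median of -0.62 in injured ganglia, -0.17 in L4 and -0.77 in the difference. Without SNL 8 fell, with the GAPDH ratio of each pool as a covariate 6 and under the deposited scaling 7. Kcns1, a silent subunit that modifies Kv2 channels of myelinated neurons, had L5 signals of 11.3 and 11.4 in SNL and SNL+ GPN against 135, 165 and 166, and L6 signals of 4.86 and 5.49 against 109, 140.1 and 113. Its L4 signals of 105 and 116 lay among the 142, 153 and 100.3 of the unligated pools. Kcns1 fell by 3.37 ± 0.14 (10.4-fold, adjusted p = 6.53e-05) with a difference of -3.15 ± 0.46 (adjusted p = 3.65e-05), the largest among the channels named here.

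Kcnd3, the A-type channel Kv4.3, fell by 3.19 ± 0.16 (adjusted p = 0.000126) from 51.6 to 92.6 to 1.65 to 4.49, but its other probe set gave a difference of 0.24 where this one gave -2.73. Kcnd1 (Kv4.1) fell by 1.63 ± 0.11 (adjusted p = 0.000245) and Kcnab1, a beta subunit, by 1.69 ± 0.15 (adjusted p = 0.000586), with L4 values of -0.25 and 0.18. The differences of Kcns1, Kcnd3, Kcnd1 and Kcnab1 passed whichever pool was left out.

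Among 10 calcium channel subunits 1 rose and 2 fell in injured ganglia, near the share of all 8761 genes, of which 828 rose and 902 fell. The riser was Cacna2d1, the alpha2delta-1 subunit to which gabapentin binds. Its L5 signals were 303 and 291 in SNL and SNL+ GPN against 71.9, 80.8 and 82.7, its L6 signals 390.5 and 455 against 114, 73.8 and 48.4, and its L4 signals 173 and 139 against 61.0, 89.3 and 76.0. The ligated pools were the higher ones at all levels, and SNL and SNL+ GPN lay close together. Cacna2d1 rose by 2.13 ± 0.15 (4.38-fold, adjusted p = 0.000275) with 1.00 in L4 (adjusted p = 0.0918), and its difference of 1.13 ± 0.33 did not pass (adjusted p = 0.0582). The T-type channel Cacna1h fell by 1.3 ± 0.27 (adjusted p = 0.0145; 0.0629 without SNL, 0.0788 without SNL+ GPN).

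Of 14 kept nociceptor markers, among them ligand-gated channels and receptors, 9 fell and 2 rose in injured ganglia, with a median of -0.87 there, -0.19 in L4 and -0.88 in the difference. With the GAPDH ratio as a covariate 5 fell, and with it or under the deposited scaling 0 rose. Grik1, a kainate receptor subunit, went from 77.2 to 150.1 in unligated to 2.23 to 13.3 in ligated L5 and L6, and in L4 was 40.4 and 58.8 against 82.9, 68.7 and 59.3. It fell by 2.89 ± 0.18 (adjusted p = 0.000183), with -0.47 in L4 and a difference of -2.42 ± 0.18 (adjusted p = 0.000317). Htr3a, the serotonin-gated channel, fell by 2.59 ± 0.12 (adjusted p = 8.89e-05) and Trpv1, the heat and capsaicin receptor, fell by 1.81 ± 0.14 (adjusted p = 0.000389). Their differences of -2.20 and -1.49 passed whichever pool was left out, as did that of Grik1.

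Receptors of ATP and of the GDNF family were less affected in size. P2rx3, an ATP-gated channel, fell by 0.77 ± 0.12 (adjusted p = 0.00487) and Ret, the shared GDNF family signalling receptor, by 0.98 ± 0.15 (adjusted p = 0.0046). Their differences of -0.77 and -0.80 passed with all pools (adjusted p = 0.0275 and 0.0352) but held only when Naive was the pool left out. Gfra3, the coreceptor for artemin, rose by 0.87 ± 0.11 (adjusted p = 0.00215), from 111 to 132 to 206 to 257, with 0.06 in L4. Its difference of 0.81 ± 0.23 passed (adjusted p = 0.0142) but not without Naive (0.0615), Naive+ GPN (0.0588) or SNL+ GPN (0.19), and was -0.06 under the deposited scaling. Ngfr, the p75 neurotrophin receptor, fell by 0.93 ± 0.12 (adjusted p = 0.00241), with -0.19 in L4 and a difference that did not pass (adjusted p = 0.081).

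Genes of large myelinated neurons and of the neuronal skeleton fell as well, so the losses were not those of nociceptor genes alone. Of 14 kept low-threshold and proprioceptor markers 10 fell and none rose, with a median of -1.22 in injured ganglia, -0.08 in L4 and -1.07 in the difference. With the GAPDH covariate 6 fell. The neurofilament genes, which build the caliber of large axons, belong to this list. Nefl signals were 1834 and 2194 in ligated L5 and 1300.4 and 1560.0 in ligated L6 against 4194 to 4969 in unligated samples, and in L4 4501 and 5620.2 against 5317, 5317 and 4969. L4 of the ligated pools lay on both sides of the others. Nefl fell by 1.46 ± 0.12 (adjusted p = 0.00041), Nefm by 1.17 ± 0.11 (adjusted p = 0.000618) and Nefh by 1.26 ± 0.14 (adjusted p = 0.00131), with L4 values of -0.05, -0.16 and -0.07. Peripherin (Prph), the intermediate filament of small neurons, had a change of -0.30 ± 0.12 that did not pass (adjusted p = 0.13). Pvalb, parvalbumin of proprioceptors, fell by 1.90 ± 0.54 (adjusted p = 0.0477) but did not pass without SNL (0.271), Naive (0.0995) or Naive+ GPN (0.0965).

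Of 22 pan-neuronal genes 10 fell and 2 rose, with a median of -0.40 in injured ganglia, -0.09 in L4 and -0.35 in the difference. With the GAPDH covariate 4 fell and under the deposited scaling 6. Rbfox3 (NeuN), a nuclear splicing factor of neurons, was at 189.9 to 279 in ligated against 726 to 851 in unligated L5 and L6, and at 518 and 575 against 693, 748 and 706 in L4. It fell by 1.77 ± 0.10 (adjusted p = 0.000145) with -0.39 in L4. In pooled tissue fewer neurons and less RNA per neuron cannot be told apart. The mean over the 22 genes was 8.99 to 9.20 in ligated L5 and L6 against 9.56 to 9.72 unligated, and 9.51 to 9.62 against 9.61 to 9.66 in L4. Over the nociceptor markers the means were 6.22 to 6.55 against 7.38 to 7.58 in L5 and L6, and 6.99 and 7.28 against 7.19 to 7.42 in L4.

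Genes of transmitter release fell for 14 of 27 and rose for 1, with a median of -0.64 in injured ganglia and -0.08 in L4, and 9 fell without SNL or under the deposited scaling and 3 with the GAPDH covariate. Vamp1, a vesicle fusion protein, fell by 1.84 ± 0.14 (adjusted p = 0.000385) with 0.11 in L4, and Snap25 of the same fusion complex by 1.00 ± 0.13 (adjusted p = 0.00238). Other losses with little L4 counterpart were Vsnl1, a neuronal calcium sensor (-2.35 in injured ganglia, -0.06 in L4), Nrn1, a growth-promoting surface protein (-1.96 and -0.14), Dpysl4, of the collapsin response mediator family (-3.36 and -0.54) and Ifitm10 (-3.17 and 0.22). These 4 passed in injured ganglia (adjusted p = 0.000996, 0.000156, 0.000175 and 0.000109) and in the difference, also with any pool left out.

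**Figure D2:**
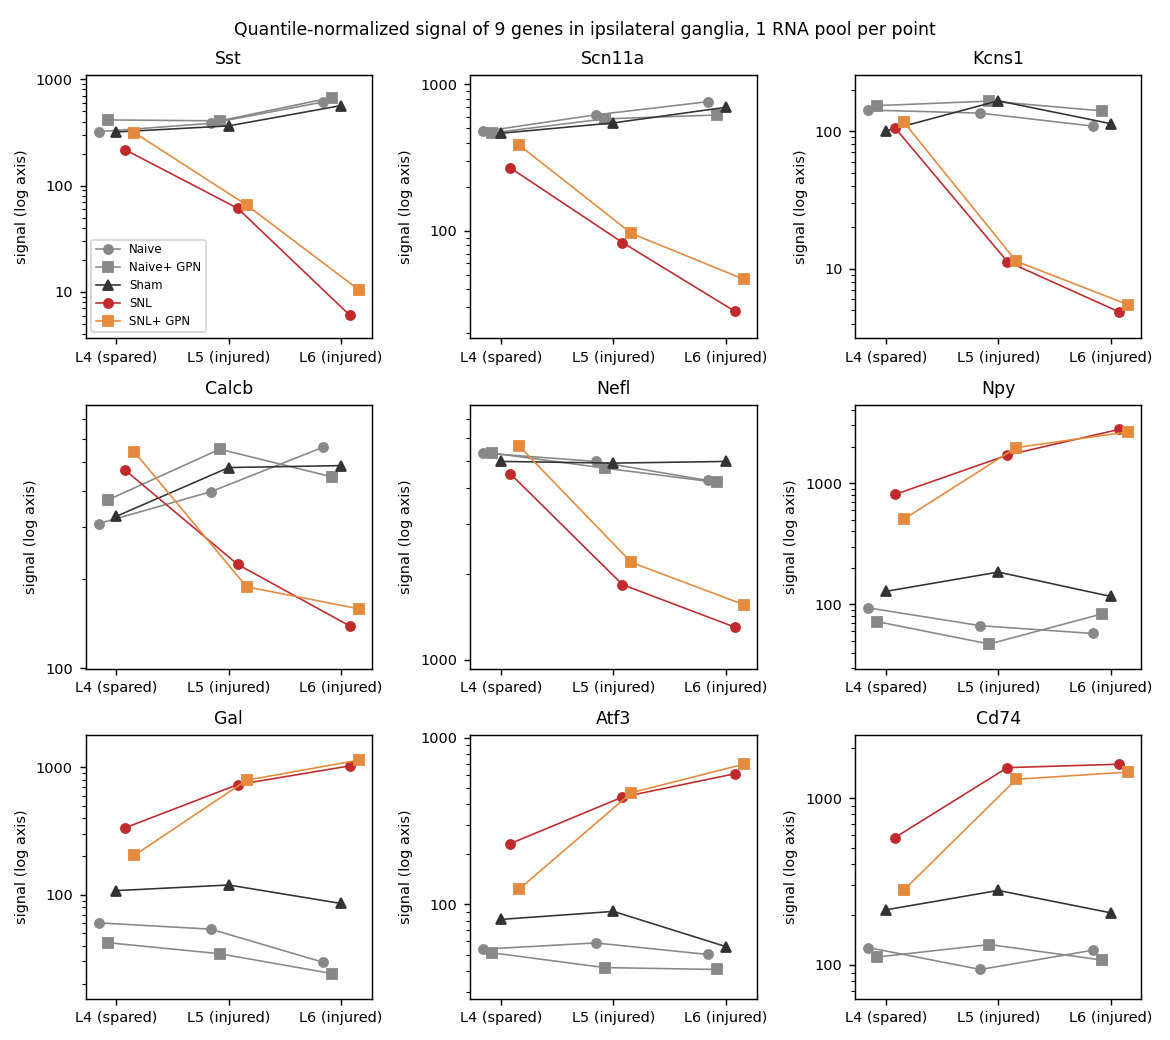
Quantile-normalized signal (log axis) of 9 genes in L4, L5 and L6, 1 point per RNA pool, with unligated pools in grey and black and ligated pools in red and orange. Sst, Scn11a, Kcns1, Calcb and Nefl drop in the ligated pools at L5 and L6 only or mostly, whereas Npy, Gal, Atf3 and Cd74 are raised in L4 too, where SNL lies above SNL+ GPN.

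Genes of axon regeneration rose in the injured ganglia with a smaller change of the same sign in L4. Of 27 kept members 18 rose and 1 (Nrn1) fell, with a median of 0.82 in injured ganglia, 0.38 in L4 and 0.44 in the difference. The count of rises was 12 without SNL+ GPN and 14 without SNL, 11 with the GAPDH covariate and 7 under the deposited scaling.

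Atf3, the transcription factor used to mark injured neurons, had L5 signals of 441 and 468 in SNL and SNL+ GPN against 58.8, 41.9 and 90.9, and L6 signals of 608 and 694 against 50.2, 40.8 and 55.9. In L4 it was 232 and 124 against 54.0, 51.3 and 81.4. The SNL pool stood clear of the unligated L4 pools and the SNL+ GPN pool lay nearer to them. Atf3 rose by 3.19 ± 0.20 in injured ganglia (adjusted p = 0.000175), with 1.39 ± 0.28 in L4 (adjusted p = 0.103). Its difference of 1.79 ± 0.37 passed (adjusted p = 0.00329) but not without SNL+ GPN (adjusted p = 0.0521).

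Csrp3, a muscle LIM protein also induced in regenerating neurons, was at 127 to 225 in ligated L5 and L6 against 10.6 to 35.1 unligated, and at 48.9 and 35.9 in L4 against 22.6, 23.5 and 26.6. It rose by 2.92 ± 0.17 (adjusted p = 0.000145), and its difference of 2.25 ± 0.33 (adjusted p = 0.000589) passed whichever pool was left out. The mean of the skeletal muscle list was 6.30 and 7.50 in L5 and 5.41 and 4.95 in L6 of SNL and SNL+ GPN. In SNL L4, the L4 sample with the highest Csrp3 signal, it was 7.13, against 4.81 to 5.52 in the other L4 samples. The part of muscle in the Csrp3 values was not tested.

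Gadd45a, a stress and DNA damage response gene, rose by 2.06 ± 0.20 (adjusted p = 0.000767) with 0.83 in L4, and Arg1, arginase 1, by 2.05 ± 0.18 (adjusted p = 0.000527) with 0.74. The difference of Arg1 passed with all pools (0.0457) but not once any pool was left out (0.0733 to 0.349). Jun, the partner of Atf3 in transcription, rose by 1.64 ± 0.24 (adjusted p = 0.00395), and in L4 its ligated pools of 291 and 156 lay on both sides of the unligated 182, 170.2 and 214. The differences of Gadd45a and Jun passed (0.00537 and 0.0108), without SNL+ GPN they did not (0.0752 and 0.155), and that of Jun also not without Naive (0.0511). Sprr1a rose by 1.13 ± 0.12 (adjusted p = 0.00113), and Gap43, the growth cone protein, by 1.17 ± 0.16 (adjusted p = 0.00287). The L4 values of these 2 were 0.21 and 0.49, and the difference of Gap43 passed with all pools (0.0484) but not once any pool was left out (0.0538 to 0.393).

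Reg3b, a secreted lectin of the regeneration list, was high in ligated L4 as well as in injured ganglia. Its L4 signals were 87.3 and 28.7 in SNL and SNL+ GPN against 2.66, 6.41 and 8.64, its L5 signals 79.7 and 108 against 5.49, 2.11 and 8.37 and its L6 signals 29.2 and 115 against 6.77, 1.89 and 11.2. The ligated pools were above the unligated ones at all levels. SNL had more in L4 than in L6, and SNL+ GPN less in L4 than in L5 or L6. Reg3b rose by 2.83 ± 0.38 in injured ganglia (adjusted p = 0.00296), its L4 change was 2.31 ± 0.45 (adjusted p = 0.0994), and the difference of 0.52 ± 0.72 did not pass (adjusted p = 0.693) and was -0.75 without SNL+ GPN. Sox11, a developmental transcription factor, rose by 1.22 ± 0.15 (adjusted p = 0.00198) with 0.79 in L4 and a difference that did not pass (adjusted p = 0.484). Among immediate-early genes 6 of 13 rose and 1 fell, but 0 passed with the GAPDH ratio as a covariate or under the deposited scaling. Egr1 rose by 1.24 ± 0.15 (adjusted p = 0.00198). The difference of Egr1 (0.83, adjusted p = 0.00963) was lost without SNL (0.0699) or SNL+ GPN (0.125), and its 4 probe sets ranged from -0.02 to 0.83.

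Antigen presentation and macrophage genes rose in the injured ganglia. Of 11 kept genes of the MHC class II list 9 rose and none fell, with a median of 2.05 in injured ganglia, 0.69 in L4 and 1.14 in the difference. Of 19 macrophage genes 11 rose and 1 fell, with medians of 1.29, 0.37 and 0.89, and 7 rose with the GAPDH covariate or under the deposited scaling. The summed level of the macrophage list, as a mean over its members, was 6.71 to 7.05 in ligated L5 and L6 against 5.81 to 6.13 in unligated ones, and 5.98 to 6.14 against 5.81 to 5.96 in L4.

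Cd74, the class II invariant chain, had L5 signals of 1521 and 1295 in SNL and SNL+ GPN against 93.9, 133 and 279, L6 signals of 1594 and 1432 against 122, 107 and 205 and L4 signals of 579.9 and 282 against 127, 112 and 214. Naive and Naive+ GPN were the lowest at each level, Sham stood between them and the ligated pools, and no ligated pool overlapped with an unligated one. Cd74 rose by 3.27 ± 0.30 (adjusted p = 0.00066) with 1.45 in L4. Its difference of 1.83 ± 0.41 (adjusted p = 0.00263) missed the threshold without SNL+ GPN (adjusted p = 0.056), and its 6 probe sets ranged from -0.90 to 2.08.

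The class II chains RT1-Ba and RT1-Bb rose by 2.47 ± 0.30 and 2.51 ± 0.20 (adjusted p = 0.00188 and 0.00041), with 0.69 and 1.13 in L4. RT1-DMb, which loads peptides onto class II, rose by 2.35 ± 0.19 (adjusted p = 0.000413) with 0.57, and Ctss, the protease cathepsin S that cuts Cd74, by 2.05 ± 0.23 (adjusted p = 0.00133) with 0.91. The differences of RT1-Bb and Ctss (0.00134 and 0.00165) passed with any pool left out. Those of RT1-Ba and RT1-DMb (0.00693 and 0.00679) were lost without SNL (0.057 and 0.0699) or SNL+ GPN (0.0888 and 0.0878).

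Csf1r, the macrophage growth factor receptor, was at 125 to 161 in ligated against 34 to 66.7 in unligated L5 and L6, and at 63.9 and 48.9 against 40.4, 43.2 and 57.4 in L4. It rose by 1.5 ± 0.19 (adjusted p = 0.0024), and its difference of 2.38-fold (SE of log2 0.26; adjusted p = 0.00241) missed the threshold without SNL+ GPN (0.0611). Gpnmb, a lysosomal glycoprotein of phagocytes, rose by 1.74 ± 0.18 (adjusted p = 0.00109) and Tyrobp, an adaptor of myeloid receptors, by 1.65 ± 0.28 (adjusted p = 0.00692; 0.0666 without SNL). Both were flat or lower in L4, at -0.15 and -0.04, and their differences passed with any pool left out. Lyz2, lysozyme, rose by 2.05 ± 0.25 (adjusted p = 0.00188) and was 0.90 in L4. T cell genes gave 1 rise among 7 kept members, beside 828 rises among all 8761 genes.

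Complement genes, which label debris and cells for removal by phagocytes, rose for 11 of 22 and fell for 1 in injured ganglia, with a median of 0.53 there, 0.13 in L4 and 0.40 in the difference. The count of rises was 6 without SNL, 7 without Naive+ GPN, 6 with the GAPDH covariate and 5 under the deposited scaling. C1qa had L5 signals of 317 and 248 in SNL and SNL+ GPN against 59.8, 64.3 and 80.9, L6 signals of 393 and 324 against 62.9, 59.3 and 97.8, and L4 signals of 117 and 69.5 against 65.2, 70.2 and 77.0. Only the injured levels separated the groups, since SNL+ GPN L4 lay among the unligated pools. C1qa rose by 2.11 ± 0.19 (adjusted p = 0.000575), and its difference of 1.78 ± 0.34 (0.000471) passed with any pool left out. C1qb, the second chain of the recognition molecule, rose by 2.68 ± 0.11 (adjusted p = 6.53e-05) with 0.93 in L4, and its difference (0.00592) was lost without SNL+ GPN (0.106).

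The proteases of the first complement component, C1r and C1s, rose by 1.26 ± 0.20 and 2.06 ± 0.39 (adjusted p = 0.00526 and 0.0107). C1s was 559.6 and 179 in L5 and 407 and 227 in L6 of SNL and SNL+ GPN, so SNL was the higher in both, and without SNL its rise did not pass (0.0697). Serping1, the inhibitor of these proteases, rose by 1.60 ± 0.16 (adjusted p = 0.000964), and C2 by 0.95 ± 0.14 (adjusted p = 0.00448). The L4 values of C1r, C1s, Serping1 and C2 were 0.33, 0.59, 0.72 and 0.08. The differences of C1r (0.00543), Serping1 (0.027) and C2 (0.0213) were lost without SNL+ GPN (0.0944, 0.19 and 0.16). That of Serping1 held only without Sham (0.0413) and that of C2 only without Naive+ GPN (0.0328), and the C2 difference was -0.25 under the deposited scaling.

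C3, the central component, had weak signals of 49.0 to 116 in ligated against 4.07 to 17.2 in unligated L5 and L6, and of 31.8 and 26.6 against 6.53, 3.11 and 21.8 in L4. It rose by 2.44 ± 0.24 (adjusted p = 0.000869) with 1.27 in L4, and its difference of 1.17 ± 0.57 did not pass (0.209). Cd55, a membrane regulator that limits complement and is made by sensory neurons, was the one that fell, by 0.92 ± 0.10 (adjusted p = 0.00146), with 0.05 in L4. Its difference of -0.97 ± 0.19 (0.0193) was lost without Sham (0.061), SNL (0.075) or SNL+ GPN (0.197).

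Other lists covered housekeeping and tissue genes. Their counts under other settings stand beside a loss of calls over all genes. The 828 rises and 902 falls of all genes became 134 and 174 with the GAPDH covariate and 64 and 246 under the deposited scaling. Calls over all probe sets also dropped with a pool left out, as given above. Ribosomal protein genes rose for 26 of 37, with a median of 0.60 in injured ganglia, 0.22 in L4 and 0.38 in the difference, but for 7 without SNL, 4 with the GAPDH ratio as a covariate and 1 under the deposited scaling. Matrix genes rose for 23 of 41 and fell for 1, with a median of 0.61 in injured ganglia and 0.16 in L4, and for 9 without SNL, 13 without SNL+ GPN, 4 with the GAPDH covariate and 1 under the deposited scaling. Mgp, a calcification inhibitor of the matrix, rose by 1.72 ± 0.27 (adjusted p = 0.00552), with SNL at 3410.2 and SNL+ GPN at 1341 in L5, and Postn, periostin, by 1.40 ± 0.20 (adjusted p = 0.00384). Cell cycle genes rose for 13 of 24, with Mcm5 of the replication helicase at 1.39 ± 0.32 (adjusted p = 0.0211; 0.162 without SNL, 0.0776 without SNL+ GPN), and for 2 without SNL, 4 without SNL+ GPN, 8 without Naive+ GPN, 1 with the GAPDH covariate and 0 under the deposited scaling. Genes of oxidative phosphorylation fell for 10 of 27, led by the ATP synthase beta subunit Atp5f1b (-1.46 ± 0.40, adjusted p = 0.0429; 0.0833 to 0.0987 without Naive, Naive+ GPN or Sham), and for 2 without SNL, 3 without Naive or SNL+ GPN, 5 without Naive+ GPN, 0 with the GAPDH covariate and 1 under the deposited scaling. Skeletal muscle genes, with a median of 1.07 in L4, 0.26 in injured ganglia and -0.62 in the difference, gave 1 fall among 28, or 11 rises without Naive.

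**Figure D3:**
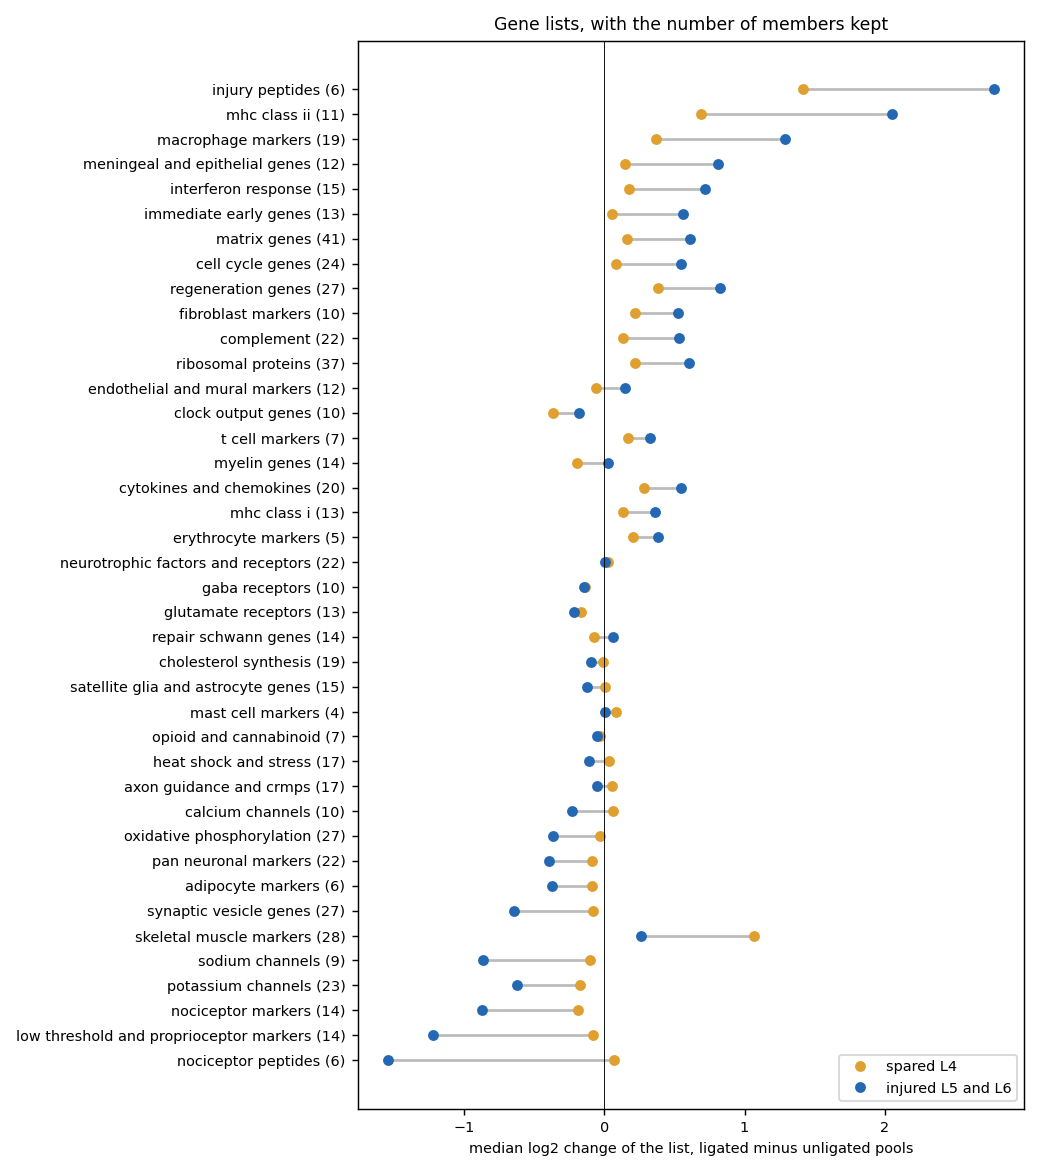
Median log2 change of each gene list with 4 or more kept members (number in brackets) in spared L4 and in injured L5 and L6 ganglia, ligated minus unligated pools, joined by a line and ordered by the difference. Injury peptides (1.42 and 2.78) have high values in both, nociceptor peptides (0.07 and -1.54) lie far below 0 in injured ganglia, and skeletal muscle genes (1.07 and 0.26) lie higher in L4.

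Genes were sorted by the size of their L4 change, with 1.5-fold as the limit and the calls of the 15-sample test, since the 5 values per gene gave none. Restricted genes passed in injured ganglia and in the difference with an L4 change under the limit, 479 genes of which 187 were higher and 292 lower. Graded genes passed both with an L4 change above the limit in the same direction, 25 genes, all higher. Echoed genes passed in injured ganglia only, with an L4 change above the limit in the same direction and the pools apart, 59 higher and 76 lower. In all, 935 probe sets (5.42%) passed in injured ganglia and in the difference in the same direction. An L4 change above the limit either way was found in 9.9% of all probe sets, with the pools apart in 3.52% as a rise and 4.07% as a drop. At a limit of 0.32 log2 units the counts were 371 restricted, 99 graded and 340 echoed genes, and at 2-fold 509, 7 and 27. The graded genes include Npy, Vip, Gal, Adcyap1, Atf3, Csrp3, Gadd45a, Arg1, Cd74, RT1-Ba, RT1-Bb, Ctss, C1qb, C1s, Serping1, Mgp and Lyz2. For some of them the L4 change fell under the limit with a pool left out. The lowest log2 values were 0.12 for C1s, 0.40 for Arg1, 0.42 for Serping1, 0.44 for RT1-Ba and 0.47 for Csrp3. They were 0.48 for Mgp, 0.49 for C1qb, 0.56 for Adcyap1 and 0.57 for Lyz2, and 0.20 for Kif22, also graded. The others listed stayed above the limit. Of all 25 graded genes, Gal, Csrp3, Kif22, C1s, Ctss, Mgp and RT1-Bb passed the test of the difference whichever pool was left out. No gene that fell met the rule for graded genes at this limit, whereas at 0.32 log2 units 47 of the 99 had fallen.

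Most genes called in the injured ganglia had an L4 change of the same sign, though a small one. Of the 828 that rose 637 (76.9%) were higher in L4 too, and of the 902 that fell 713 (79.0%) were lower, against 57.7% of same sign among the 7031 genes not called. The median L4 change was 0.17 beside 0.74 in injured ganglia for rises and -0.18 beside -0.74 for falls. In the contralateral L4 ganglion the shares were 43.2% and 62.7%, against 50.9% among the genes not called. The median contralateral L4 change over all genes was -0.046. On array set A, whose L4 medians overlapped between groups, the ipsilateral shares were 85.9% (287 of 334) and 79.2% (290 of 366), and the contralateral L4 shares 41.9% and 58.2%. The median L4 change as a percent of the injured one was 26.7 for rises and 17.1 for falls on this set.

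Another relation, with L4 opposite to the injured ganglia, depended on the array set. The class required a difference past the 15-sample test and an L4 change of 1.5-fold or more against the direction of the injured ganglia. It held 61 genes, of which 45 were on set C and 5 on set A. Set C is also the set on which 47.5% of genes had ligated and unligated L4 pools apart, against 26.0% on set A and 23.9% on set B, and on which the ligated L4 arrays were the brighter. Across genes, which are not independent, ipsilateral and contralateral L4 changes correlated at r = 0.61 on set C and -0.01 on set A. Of the 5 on set A, Casp2, an apoptosis protease, rose in injured ganglia (0.91 ± 0.19, adjusted p = 0.0155; 0.115 without SNL and 0.0581 without SNL+ GPN) with -0.62 in L4. Cckbr, the gastrin and cholecystokinin receptor, rose by 0.81 ± 0.15 (adjusted p = 0.00913; 0.0666 without SNL) with -0.81 in L4, and its 2 probe sets gave differences of -0.15 and 1.62. Htr4, Aatk and Slc27a2 had injured changes that did not pass (0.90, 0.17 and -0.41) beside L4 values of -1.18, -0.66 and 1.40. The differences of Cckbr, Htr4, Aatk and Slc27a2 each held with only 1 of the 5 pools left out, and that of Casp2 was lost without SNL+ GPN (0.137).

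Of 10 kept clock output genes 2 rose and 2 fell in injured ganglia and 0 passed in L4, with medians of -0.18 and -0.37, and without SNL 0 passed in injured ganglia. Over all 8761 genes the injured ganglia gave 828 rises and 902 falls. Dbp, a transcription factor with a strong daily rhythm, had L4 signals of 30.3 and 9.77 in SNL and SNL+ GPN against 210.1, 161 and 92.6 in Naive, Naive+ GPN and Sham. In L5 it was 27.6 and 27.5 against 190.3, 135 and 86.9 and in L6 9.47 and 45.3 against 129.8, 54.0 and 63.6. The ligated pools were below all unligated ones at each level. Dbp fell by 1.80 ± 0.34 in injured ganglia (adjusted p = 0.0113; 0.0913 without SNL), and its change was -2.68 ± 0.40 in L4 (adjusted p = 0.0742), -2.30 in contralateral L4 and -1.55 in sciatic nerve (adjusted p = 0.0118). Bmal1, which runs in antiphase to Dbp, rose by 1.61 ± 0.33 (adjusted p = 0.0141; 0.0838 without SNL, 0.0831 without SNL+ GPN) with 1.24 ± 0.35 in L4 (adjusted p = 0.196) and 1.38 in contralateral L4. The differences of both did not pass (0.379 and 0.699). The labels do not give the hour at which tissue was taken, and its part in these values was not tested.

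L5 and L6 gave like changes. Across the 8761 genes the ligation change correlated at r = 0.72 between L5 and L6 and had the same sign in 72.3%, and the median size of change was 0.27 in L5, 0.28 in L6 and 0.18 in L4. Of the genes called as rises in injured ganglia 70.5% (584 of 828) were changed more in L6 than in L5, and of the falls 54.0% (487 of 902), against 53.4% of all genes. Of the graded genes 21 of 25 had the larger change in L6. Sst, with the ligated L6 signals of 6.03 and 10.5 and L5 signals of 61.2 and 65.6, shows the same order among falls.

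The order of single pools was tallied in the 25 graded genes. Sham was above both naive pools for 22 of 25 in the injured levels and for 22 of 25 in L4, against 48.7% and 47.6% of restricted rises and 34.1% and 32.9% of all genes. In L4 the SNL pool was above the SNL+ GPN pool for 24 of 25, against 77.5% of restricted rises, 72.2% of all genes that rose in injured ganglia and 46.8% of all genes, whereas in L5 and L6 this was so for 17 of 25. Npy (806 and 506 in SNL and SNL+ GPN L4), Gal (336 and 204), Atf3 (232 and 124) and Cd74 (579.9 and 282) were such genes. With 1 pool per treatment the drug, the pool and the higher muscle signal of SNL L4 cannot be told apart, and these counts carry no test.

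The contralateral ganglia and the sciatic nerve served as other compartments of the same treatments. The contralateral ganglia had no Naive L6 and no Naive+ GPN L5 sample, so these pools rested on 1 level each beside L4. There the same difference gave no call (0%, lowest adjusted p 0.998), at a median SE of 0.319 against 0.225 on the ipsilateral side. An unadjusted p under 0.05 was found for 455 probe sets (2.64%), and 16.3% had the pools apart. The contralateral L5 and L6 change had the same sign as the ipsilateral one for 48.8% of rises and 64.4% of falls. Among genes not called this was so for 53.2%. In the sciatic nerve beyond the ligation 824 of 16925 probe sets (4.87%) were called, and 5 without SNL. Of the genes that rose in injured ganglia and were kept in nerve 71.1% (572 of 805) were higher in nerve. Of those that fell 69.1% (507 of 734) were lower, and of genes not called 56.2% had the same sign. Atf3 rose in nerve by 2.98 (adjusted p = 0.00251), Jun by 1.79 (0.00394), Serping1 by 2.01 (0.0118) and C3 by 2.65 (0.00525), so these were not confined to ganglia. Npy had -0.56 and Cd74 0.12 in nerve, neither past the threshold (0.304 and 0.88).

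The level of a gene in ganglion and nerve of unligated rats was taken from arrays that neither the members nor the classes used. It was formed in the contralateral side of the 3 unligated pools as L4 ganglion minus nerve. This level is not free of the selection, because a gene that falls must have signal in unligated ganglia. A gene that rises can pass the filter of 4 samples through ligated L5 and L6 alone. The shares below were thus partly set by the selection and carry no test. Of the 187 restricted genes that rose 159 (85.0%) were lower in ganglion than in nerve in all 3 pools, with a median of -1.08, and 10 (5.35%) were higher. Of the 292 that fell 262 (89.7%) were higher in ganglion in all 3 pools, with a median of 1.88, and 4 (1.37%) were lower. Over all genes 32.7% were higher and 34.1% lower in ganglion. Of the 25 graded genes 17 were lower in ganglion, among them Cd74 (-3.11), C1s (-3.51) and C1qb (-3.22), and 4 were higher, among them Gal (1.76), Adcyap1 (1.98) and Npy (1.58). Sst (5.52), Scn11a (5.34) and Calcb (5.21) lay at the ganglion end.

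**Figure D4:**
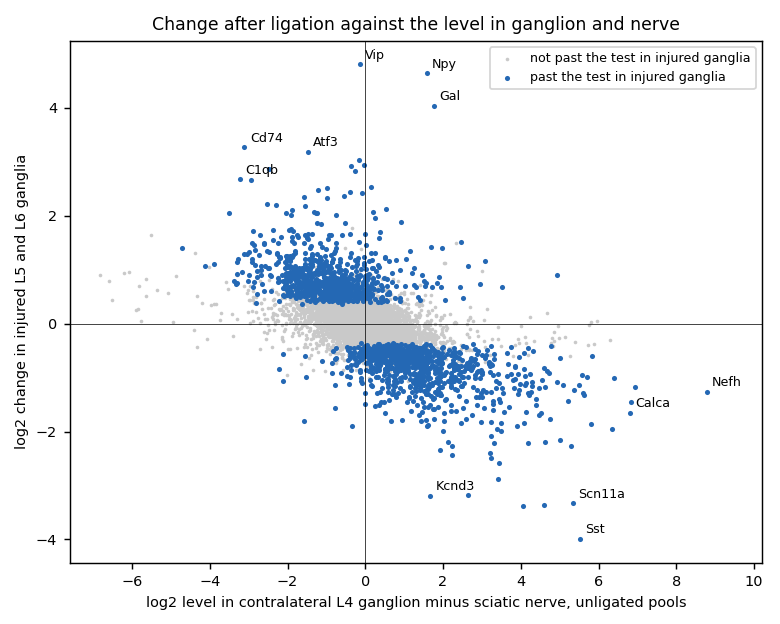
Log2 change in injured L5 and L6 ganglia (y axis) against the log2 level in contralateral L4 ganglion minus sciatic nerve in the unligated pools (x axis), 1 point per gene, with genes past the test in injured ganglia in blue. Falls such as Sst and Nefh lie to the right, where ganglion exceeds nerve, rises such as Cd74 and C1qb to the left, and Npy and Gal are rises on the right.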

How the data were processed

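The authors deposited linear signal intensity per probe set, made with MAS5 per the submitters' processing notes, without version, scaling target or detection calls. The 15 ipsilateral DRG arrays of each set were quantile normalized, and log2 was taken after adding the 20th percentile of the set's deposited intensity as a pseudocount (5.8, 4.5 and 6.2 for A, B and C). Folds are on that scale and understate changes of weak genes. Of 26379 probe sets, 177 controls were left out and those above the 40th percentile of their array in at least 4 of 15 samples kept. Of all probe sets 18189 had 1 gene symbol, 380 several and 7633 none (platform annotation, updated through Entrez for 18122). A gene is its probe set of highest mean log2.

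Tests were two-sided limma 3.58.1 (R 4.3.3, lmFit, eBayes with trend) on 2 ligated against 3 unligated pools, Benjamini-Hochberg over all kept probe sets, threshold 0.05. They were also run on simulated data with independent noise in each sample and no pool effect. That simulation cannot show how the 15-sample test behaves when L5 and L6 of a pool are alike. The 41 lists and the members were chosen with earlier results of these data known. Named genes included the largest calls of the difference, up to 4 per list, all complement genes kept and the 3 markers. Since the 5 values per gene gave no call, the 15-sample test, planned as an alternative, chose those calls. Other genes were named for a large L4 change, shared with the injured ganglia or opposite to them. Dbp, Bmal1 and Reg3b were named only for a shared L4 change. Casp2, Cckbr, Htr4, Aatk and Slc27a2 were named only for an opposite one. The L4 pattern described for these genes thus follows from that choice. Vgf, Adcyap1, Chgb, Tac1, Scn8a, Scn9a, Scn3a, Cacna2d1, Cacna1h, Trpv1, P2rx3, Prph, Pvalb, Gadd45a, Arg1, Sprr1a, Gap43, Sox11, Ctss, Lyz2, Tyrobp, Snap25, Postn, Mcm5, Atp5f1b and Ngfr were named after their values were seen. Alternatives changed scaling, pseudocount, filter, trend, pairing, array sets, covariates (GAPDH ratio, muscle genes) and left out each pool. The contralateral arrays (13) and nerve arrays (5) were normalized separately.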

Additional observations from a re-analysis of the deposited data

Results flagged for a closer look

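Among the 82 named genes, 3 had an L4 change against that of the injured ganglia, with ligated and unligated pools apart in both. These 3 are on array set A, and genes not named were not searched. Cckbr and Htr4 had been named because their L4 change was opposite, so their place here follows from that choice. Ligated and unligated L4 pools were apart for 26.0% of all set A genes. Calcb, a CGRP gene, was 0.58 ± 0.13 in L4 and -1.44 ± 0.10 in injured ganglia, and the test of the difference over all 15 samples gave an adjusted p of 0.000447 (limma), which passed whichever pool was left out. Cckbr, a cholecystokinin receptor, was -0.81 ± 0.28 in L4 and 0.81 ± 0.15 in injured ganglia, with an adjusted p of 0.0284 for the difference that held only without Sham (0.0288). Htr4, a serotonin receptor, was -1.18 ± 0.48 in L4 and 0.90 ± 0.30 in injured ganglia, the latter not past the threshold, with an adjusted p of 0.0317 for the difference that held only without Naive+ GPN (0.0386).

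Among the 82 named genes, 2 passed in sciatic nerve and in injured ganglia with opposite signs. Of all genes called in injured ganglia, 39 rises and 42 falls had a nerve change of 1.5-fold or more the other way. Nefm, a neurofilament gene, rose by 3.06 ± 0.27 in nerve (adjusted p = 0.00251, limma) and was -1.17 ± 0.11 in injured ganglia. Ngfr, the p75 neurotrophin receptor, rose by 3.66 ± 0.17 in nerve (adjusted p = 0.000561) and was -0.93 ± 0.12 in injured ganglia. The difference between ganglion and nerve was not tested.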

How the results depend on the processing

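Every value rests on 1 pool per treatment, 2 ligated against 3 unligated, so pool and treatment cannot be told apart. The count for the 5 injured-minus-spared values was 0 with each pool left out in turn and with median scaling, a lower pseudocount, no filter, a muscle or GAPDH covariate, or L5 or L6 alone. It was 538 with the deposited scaling (3 higher, 535 lower), 77 with quantile normalization within each level, 107 with the 40th percentile as pseudocount, 295 with the filter at the 60th percentile, 192 without the trend, 617 without pairing by pool, 1230 with 15 samples and pool as a block, 35 on set A and 3 on sets A and B. The 15-sample count with the pools left out in the order Naive, Naive+ GPN, Sham, SNL and SNL+ GPN was 644, 560, 715, 538 and 214. It was 356 on set A, 114 with the deposited scaling and 787 with median scaling, and restricted probe sets numbered 845 with it. Injured ganglia gave 618 with the deposited scaling, 566 with the GAPDH ratio as a covariate, 1387 for L6 alone, 1132 on set A, 1947 on sets A and B, and 1051 to 2679 with a pool left out. L4 gave 2745 with the deposited scaling, 84 with median scaling, 7 with the 10th percentile as pseudocount, 1 on set A and 0 to 21 with a pool left out, and nerve 5 to 994. The causes were not tested.

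Of 82 named genes 20 lost the call in injured ganglia with the deposited scaling, 23 with the GAPDH covariate and 11 without SNL. Signs turned with the deposited scaling for the difference of C2 (-0.25) and Gfra3 (-0.064) and the injured change of Aatk (-0.16), with the GAPDH covariate for the difference of Bmal1 (-0.052), and with L6 alone for that of Scn3a (-0.092). With a pool left out the difference ranged from -0.14 to 0.72 for Bmal1, -0.16 to 1.93 for Dbp, -0.75 to 1.78 for Reg3b, -0.017 to 0.45 for Scn3a and -0.0033 to 0.85 for Sox11, and the injured change from -0.0701 to 0.42 for Aatk and -0.84 to 0.018 for Slc27a2. The difference was paired by treatment (617 calls without that pairing), and treatments had 1 pool each, so no replicate numbers could pair samples further.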
